A study of Homo sapiens with 6 samples.

Results

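The E2F and DP transcription factors were examined in RNA sequencing data from T24 cells, an established line of human bladder cancer. The members are the genes E2F1 to E2F8, TFDP1 and TFDP2, found by matching their symbols to the Ensembl identifiers of the count table, which gives 10 of its 60612 gene identifiers. All cells were wild type in the labels, had been infected with a lentivirus that carries a short hairpin, and had been selected with puromycin. In 3 libraries, labelled negative control, the hairpin was a control duplex (dsControl). In the other 3, labelled FOXF1-activated, it was derived from a small activating RNA (dsFOXF1-367), a duplex designed to raise transcription of the forkhead factor gene FOXF1. The labels name no clone. Since they also leave unsaid whether replicates are separate cultures, a p-value here sets a difference against library-to-library spread alone, and that spread may be technical.

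E2F proteins bind DNA as dimers with a DP partner, TFDP1 or TFDP2, and control genes needed to enter S phase. E2F1, E2F2 and E2F3 are activators that the retinoblastoma protein RB1 holds in check, E2F4 and E2F5 act mainly as repressors together with the related pocket proteins RBL1 and RBL2, and E2F6 represses through a Polycomb complex without binding pocket proteins. E2F7 and E2F8, the atypical members, bind DNA without a DP partner and repress E2F target genes, E2F1 among them.

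FOXF1 itself fell in libraries carrying the FOXF1-activated label, to 5.94, 4.78 and 5.10 CPM (counts scaled to library size, with TMM factors) against 7.51, 7.10 and 7.95 CPM in the controls. This difference (log2 fold change -0.51, SE 0.14; edgeR quasi-likelihood test, Benjamini-Hochberg adjusted p = 0.0109) goes against the label, so every direction given here sets the libraries labelled FOXF1-activated against the controls, by label alone. Library totals were 72500854 to 77198669 counts. Among markers of the labelled cell type, the keratin genes KRT7, KRT8 and KRT18 were at 188 to 671 CPM, whereas 3 of 13 epithelial and urothelial markers (UPK3A, KRT5 and TP63) were at 0 in every library and CDH1 reached at most 0.0568 CPM. The 13 markers, of which 5 reached 1 CPM in all libraries, summed to 1711 to 1836 CPM in the controls and 1221 to 1307 CPM in the other group. Within this sum KRT7 was at 510 to 586 CPM in the controls and 188 to 220 CPM in the other group. PPARG (52.6 to 56.0 and 59.7 to 66.1 CPM) and GATA3 (under 1 CPM throughout) were higher in every library of the latter group. The 3 mesenchymal-like markers (VIM, FN1, CDH2) summed to 33705 to 36262 and 4622 to 5059 CPM. Most of that sum was FN1, at 31170 to 33390 and 2873 to 2940 CPM, with VIM at 2462 to 3144 and 1692 to 2074 CPM. Of markers of other cell types, 3 for leukocytes summed to 28.1 to 33.7 and 23.4 to 26.7 CPM (CD68 lower in every library of the latter group, PTPRC and CD3E higher), 2 for endothelium to 4.36 to 8.40 and 3.07 to 9.91 CPM, and 4 for fibroblasts to 133 to 166 and 93.1 to 162 CPM. None of these 9 was at 0 in every library. MKI67, a marker of proliferating cells, was at 271, 285 and 287 CPM in the controls and at 49.7, 49.0 and 55.6 CPM in those labelled FOXF1-activated (log2 fold change -2.45, edgeR adjusted p = 1.43e-08). The part of the marker and MKI67 differences in the results on E2F genes was not tested, and in bulk RNA fewer cells of a type and less RNA per cell cannot be told apart.

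The promoters of the 3 activators are shown because the genes differ in response, and those of E2F6 and E2F7 because these are the members that were higher. Each runs 5′ to 3′ from 250 bases before to 50 bases after a transcription start, on the gene's strand, from RefSeq on GRCh38.p14; for E2F3 it is the upstream of 2 starts. Capitals mark matches to the E2F words TTTCCCGC, TTTCGCGC, TTTGCCGC and TTTGGCGC on either strand, and to the word TTTCGCGG followed on the gene's strand within 25 bases by TTGGCGC. The second search was added after the promoters had been read and was built from what the activators share, so its matches in them are given and nothing is read from them. The locations are chr20:33686336-33686635 (minus strand) for E2F1, chr1:23531184-23531483 (minus) for E2F2, chr6:20401629-20401928 (plus) for E2F3, chr2:11466112-11466411 (minus) for E2F6 and chr12:77065520-77065819 (minus) for E2F7.
E2F1: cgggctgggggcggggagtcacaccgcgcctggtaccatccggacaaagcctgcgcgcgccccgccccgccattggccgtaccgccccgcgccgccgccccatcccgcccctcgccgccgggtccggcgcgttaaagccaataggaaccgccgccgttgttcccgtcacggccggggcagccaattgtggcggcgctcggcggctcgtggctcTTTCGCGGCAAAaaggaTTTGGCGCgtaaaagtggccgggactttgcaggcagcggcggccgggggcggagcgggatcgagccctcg
E2F2: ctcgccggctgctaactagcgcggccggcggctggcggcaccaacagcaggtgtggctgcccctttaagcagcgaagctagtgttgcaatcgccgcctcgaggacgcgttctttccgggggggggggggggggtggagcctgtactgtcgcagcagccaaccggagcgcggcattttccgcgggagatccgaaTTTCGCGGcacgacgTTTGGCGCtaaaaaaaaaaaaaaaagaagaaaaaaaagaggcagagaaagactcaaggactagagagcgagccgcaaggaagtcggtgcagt
E2F3: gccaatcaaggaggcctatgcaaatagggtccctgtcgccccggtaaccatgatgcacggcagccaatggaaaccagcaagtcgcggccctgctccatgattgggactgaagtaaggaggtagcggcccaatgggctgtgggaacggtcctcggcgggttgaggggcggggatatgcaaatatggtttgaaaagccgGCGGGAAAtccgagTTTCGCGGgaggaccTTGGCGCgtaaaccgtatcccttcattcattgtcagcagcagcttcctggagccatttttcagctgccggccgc
E2F6: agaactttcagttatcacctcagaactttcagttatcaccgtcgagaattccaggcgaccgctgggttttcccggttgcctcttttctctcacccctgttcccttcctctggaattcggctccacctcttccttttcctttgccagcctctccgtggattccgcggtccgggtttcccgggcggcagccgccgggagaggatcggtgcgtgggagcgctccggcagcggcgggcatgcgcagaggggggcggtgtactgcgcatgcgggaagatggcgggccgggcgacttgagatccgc
E2F7: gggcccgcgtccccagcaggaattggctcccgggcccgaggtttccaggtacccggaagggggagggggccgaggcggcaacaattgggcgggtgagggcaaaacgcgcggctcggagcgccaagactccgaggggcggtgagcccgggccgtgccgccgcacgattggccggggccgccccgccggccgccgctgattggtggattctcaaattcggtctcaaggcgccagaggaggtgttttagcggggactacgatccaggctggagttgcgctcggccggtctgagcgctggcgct

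Of the 8 members with a promoter in the RefSeq table, 4 held at least 1 of the 4 E2F words (E2F1, E2F2, E2F3 and TFDP1), which is 4 of their 11 promoters (E2F3 has 2 and TFDP2 has 3), against 3.31% of all 35116 promoters of the same length. The E2F1 promoter held TTTGCCGC on the opposite strand from position -33 and TTTGGCGC from position -20 relative to the start. The first of these overlaps TTTCGCGG, and the second contains the TTGGCGC of the pair. E2F2 held TTTGGCGC from position -42, E2F3 held TTTCCCGC on the opposite strand from position -53, and TFDP1 held TTTCGCGC on the opposite strand from position -120. The pair of words occurred in E2F1, E2F2 and E2F3 with 10, 8 and 7 bases between the words, and in 4 of all promoters, the other being that of SIAH1. The downstream promoter of E2F3, which is not shown, held none of the 4 words and no such pair. E2F4, E2F6, E2F7 and TFDP2 held none of the 4 words in the window searched. E2F5 and E2F8 had no promoter in the RefSeq table and were not searched. Of the 33 G1/S target genes described further on, 28 had a promoter there, and 17 of their 42 promoters (40.5%) held at least 1 word. A match describes letters in the window and is not a binding site.

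All 10 members passed the filter on low counts. At an edgeR quasi-likelihood, Benjamini-Hochberg adjusted p under 0.05, 2 were higher (E2F6 and E2F7), 6 were lower (E2F1, E2F2, E2F4, E2F8, TFDP1 and TFDP2) and 2 did not pass (E2F3 and E2F5). Among all 20334 genes tested, 60.7% were called, 29.2% as higher and 31.5% as lower, so 8 called members of 10 stand against a background in which most genes were called. For 8 members all libraries of a group lay apart from all of the other, against 68.8% of all tested genes. The median log2 fold change of the members was -0.59, against -3.24e-05 over all tested genes. The log2 fold changes ran from -2.99 for E2F8 to 1.34 for E2F6.

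**Figure D1:**
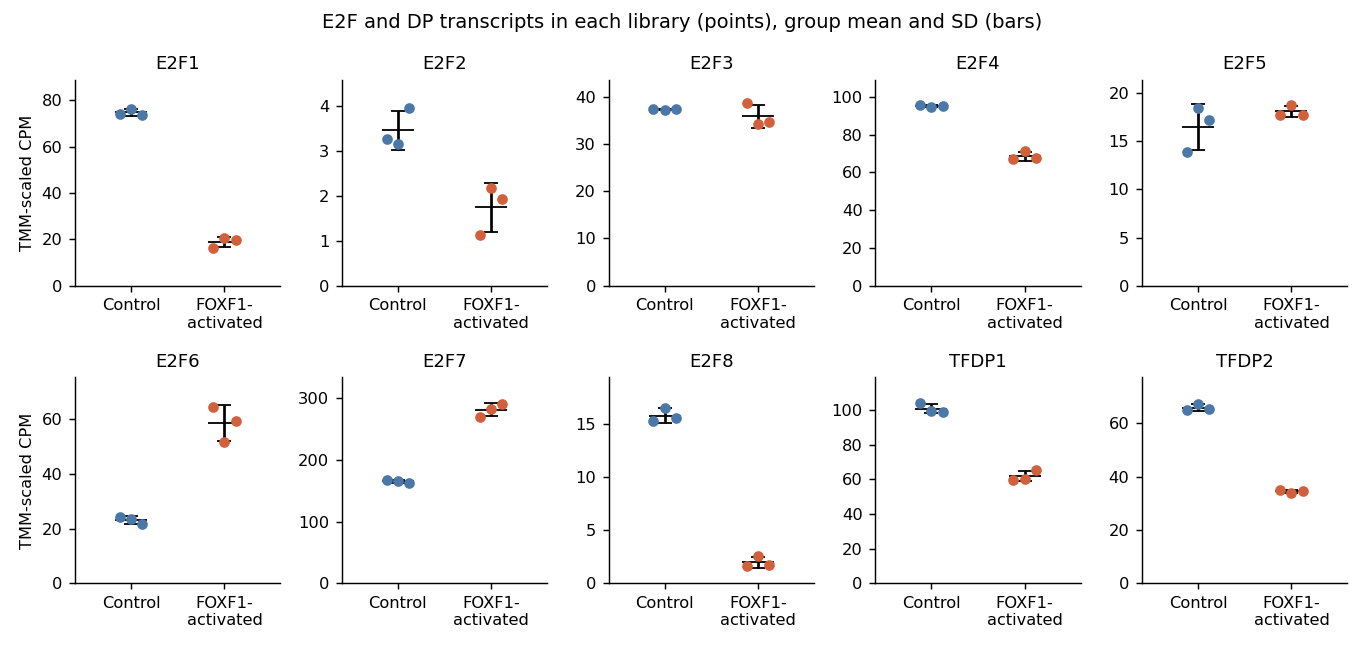
Level of each E2F and DP gene in TMM-scaled CPM (y axis, from 0) in the 3 negative control libraries and the 3 labelled FOXF1-activated (x axis); points are libraries, bars the mean and SD. The groups overlap for E2F3 and E2F5 and are apart for the other 8 genes.

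Among the activators, E2F1 fell most. E2F1 (ENSG00000101412; GRCh38, GENCODE 29, chr20:33675683-33686404, minus strand), which drives S-phase genes and can also induce apoptosis genes, was at 74.1, 76.4 and 73.9 CPM in the controls. In the libraries labelled FOXF1-activated it was at 16.3, 20.5 and 19.7 CPM. All 3 of these lay far below every control, and the spread within a group was small beside the gap. The means of 74.8 ± 1.39 and 18.8 ± 2.23 CPM (SD, n = 3 each) gave a log2 fold change of -1.99 (SE 0.09, edgeR adjusted p = 1.11e-07), a 3.97-fold lower level. Of all tested genes, 5.5% had a lower log2 fold change. The counts behind these levels were 5525 to 5910 per control library and 1146 to 1475 in the other group.

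E2F2 (ENSG00000007968; chr1:23506430-23531220, minus strand), an activator that RB1 also binds, was at low levels, 3.27, 3.15 and 3.96 CPM in the controls and at 1.14, 2.17 and 1.94 CPM in those labelled FOXF1-activated. The groups did not overlap, and library 1 of the latter was the lowest of all 6. The log2 fold change was -0.98 (95% interval -1.58 to -0.39, edgeR adjusted p = 0.00900), on 242 to 296 counts per control library and 80 to 154 in the other group. E2F3 (ENSG00000112242; chr6:20401906-20493715, plus strand) was at 37.4, 37.3 and 37.5 CPM in the controls and at 38.7, 34.2 and 34.7 CPM in those labelled FOXF1-activated. Library 1 of that group was above all controls and the other 2 were below them. The log2 fold change of -0.06 had a 95% interval of -0.22 to 0.10 (edgeR adjusted p = 0.490). E2F3 gives rise to the isoforms E2F3a and E2F3b from separate promoters, and gene counts sum over them.

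The pocket-bound repressors also differed from each other. E2F4 (ENSG00000205250; chr16:67192169-67198918, plus strand), which occupies target promoters with RBL1 or RBL2 in resting cells, was at 95.9, 94.6 and 95.1 CPM in the controls and at 67.0, 71.1 and 67.5 CPM in those labelled FOXF1-activated. All 3 of the latter lay below all controls. Its log2 fold change was -0.47 (SE 0.05, edgeR adjusted p = 2.77e-05). E2F5 (ENSG00000133740; chr8:85177225-85217158, plus strand), the close relative of E2F4, was at 13.8, 18.4 and 17.2 CPM in the controls and at 17.7, 18.8 and 17.7 CPM in the other group. The lowest and widest-spread values were controls, and the groups overlapped. Its log2 fold change was 0.13 (95% interval -0.13 to 0.40, edgeR adjusted p = 0.348). Exons of E2F5 overlap those of C8orf59 on the opposite strand, which had 1874 to 2139 counts per control library and 1037 to 1080 in the other group. The library kit marks strand, but no source used here gives the strand setting of the counting, and reads of the overlapping exons may have been shared.

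E2F6 (ENSG00000169016; chr2:11444375-11466177, minus strand), the Polycomb-linked repressor, rose. It was at 24.4, 23.3 and 21.7 CPM in the controls and at 64.4, 51.6 and 59.3 CPM in those labelled FOXF1-activated. Even the lowest of the latter was above the highest control. The means of 23.2 ± 1.33 and 58.4 ± 6.45 CPM (SD, n = 3 each) gave a log2 fold change of 1.34 (SE 0.09, edgeR adjusted p = 1.38e-06), a 2.52-fold higher level, and 11.3% of all tested genes had a higher log2 fold change.

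Processed pseudogenes of E2F6 share sequence with it, so their counts were looked at after the values of E2F6 had been seen. E2F6P1, E2F6P2 and E2F6P3 were 99.5%, 99.2% and 99.3% identical to the longest coding E2F6 transcript over 602 to 607 bases, and E2F6P4 was 78.1% identical over 329 bases. E2F6P4 (ENSG00000231513; chrX:136097835-136098348, minus strand) was at 1.67, 1.88 and 1.67 CPM in the controls and at 25.2, 17.05 and 23.6 CPM in those labelled FOXF1-activated. Its log2 fold change was 3.66 (SE 0.17, edgeR adjusted p = 1.42e-07), against 1.34 for E2F6. E2F6P1 was also higher, at 1.06 on the log2 scale (edgeR adjusted p = 0.00578), on 90 to 175 counts per control library and 206 to 275 in the other group. E2F6P2 and E2F6P3, at 57 and 119 counts summed over the libraries labelled FOXF1-activated, did not pass the test. Because E2F6P1 to E2F6P3 are nearly identical to E2F6, how the authors' counting divided reads among these 4 genes cannot be told apart from their levels. With the 4 pseudogenes added to E2F6, a setting chosen after seeing the data, the log2 fold change of the sum was 1.65. This sum includes E2F6P4, the least alike in sequence, at 402 counts over the controls and 4750 over the other group. The value therefore does not show what reads shared with E2F6P1 to E2F6P3 do to the difference in E2F6.

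**Figure D2:**
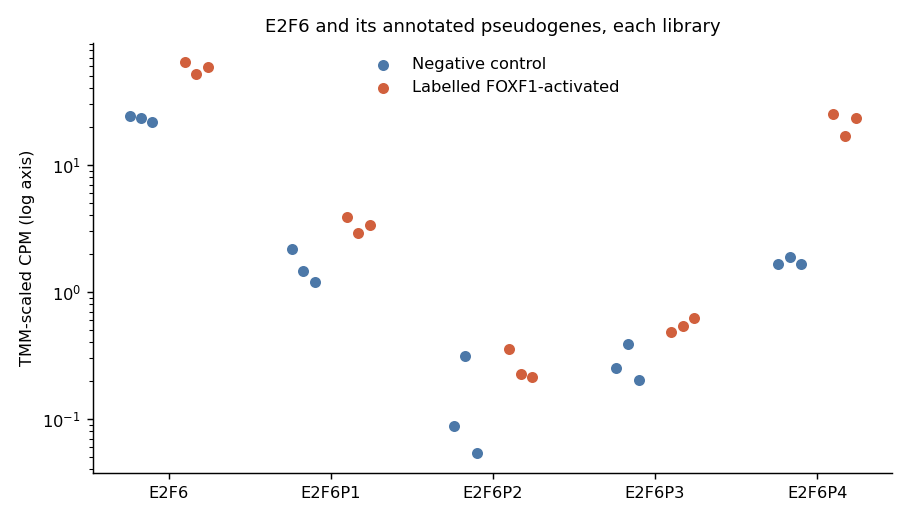
TMM-scaled CPM (y axis, log scale) of E2F6 and its 4 annotated pseudogenes (x axis) in each of 6 libraries; blue points are negative control and red points are labelled FOXF1-activated. E2F6P4 went from a mean of 1.74 to 21.9 CPM, and E2F6 from 23.2 to 58.4 CPM.

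The atypical repressors moved in opposite directions. E2F7 (ENSG00000165891; chr12:77021247-77065580, minus strand) was at 167, 166 and 162 CPM in the controls and at 269.8, 282 and 290.3 CPM in those labelled FOXF1-activated. All 3 of the latter exceeded all controls (log2 fold change 0.77, SE 0.05, edgeR adjusted p = 1.03e-06). E2F8 (ENSG00000129173; chr11:19224063-19241620, minus strand), whose product acts on an overlapping set of target genes, was at 15.3, 16.6 and 15.5 CPM in the controls. It was at 1.63, 2.58 and 1.75 CPM in libraries labelled FOXF1-activated, with no overlap. Its log2 fold change of -2.99 (SE 0.18, edgeR adjusted p = 6.97e-07), a 7.94-fold lower level, was the largest among the members, and 1.6% of all tested genes had a lower value. The counts were 1163 to 1271 per control library and 115 to 183 in the other group. An antisense transcript annotated over E2F8 exons had 0 counts in every library.

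Both DP partners fell. TFDP1 (ENSG00000198176; chr13:113584721-113641470, plus strand), which encodes the DP1 subunit, was at 103.8, 99.6 and 98.8 CPM in the controls and at 59.8, 60.5 and 65.4 CPM in those labelled FOXF1-activated. TFDP2 (ENSG00000114126; chr3:141944428-142149544, minus strand), which encodes DP2, was at 64.8, 67.2 and 65.1 CPM in the controls and at 34.9, 33.9 and 34.6 CPM in the other group. Neither gene's groups overlapped. The log2 fold changes were -0.70 for TFDP1 (SE 0.06, edgeR adjusted p = 3.82e-06) and -0.93 for TFDP2 (SE 0.06, edgeR adjusted p = 6.18e-07). TFDP3, another DP gene, which is no member here, had 0 counts in all 6 libraries.

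**Figure D3:**
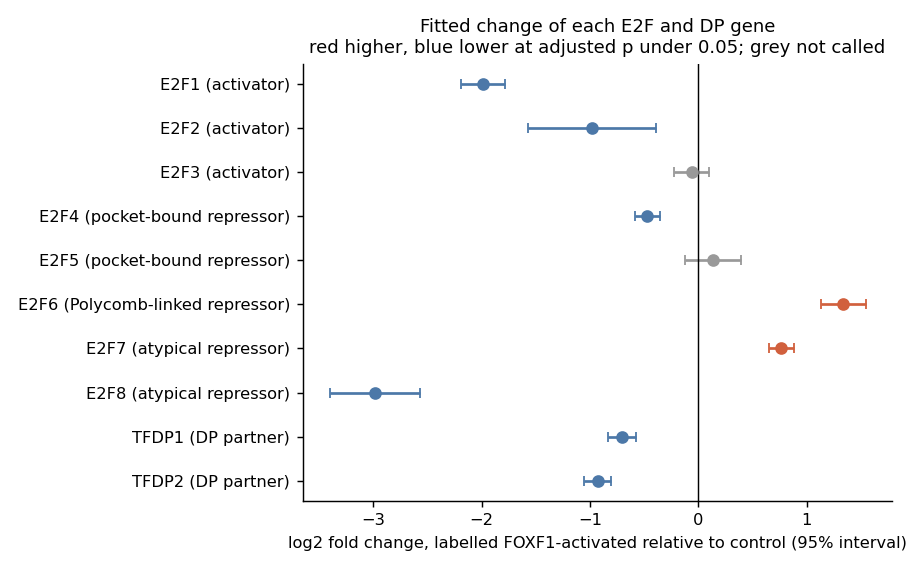
Log2 fold change (x axis, libraries labelled FOXF1-activated relative to negative control) of each member (y axis, by class) with its 95% interval from the edgeR fit. Red genes were higher and blue genes lower at adjusted p under 0.05; the intervals of the grey genes E2F3 and E2F5 include 0.

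To compare genes with each other, CPM was divided by the summed length of a gene's exons, and no test was made on these levels. In the controls E2F1 had the highest level, 29.9 CPM per kb, and did not overlap the next gene. TFDP1 (26.9), E2F4 (26.6) and E2F7 (26.2 CPM per kb) followed. Between libraries, TFDP1 overlapped E2F4 and E2F4 overlapped E2F7. E2F3 (7.24), E2F6 (5.69), TFDP2 (5.52), E2F8 (3.82), E2F5 (2.78) and E2F2 (0.634 CPM per kb) came after, with E2F6 and TFDP2 overlapping. In the libraries labelled FOXF1-activated the order began with E2F7 (44.5), E2F4 (19.1), TFDP1 (16.5) and E2F6 (14.4 CPM per kb), none of which overlapped its neighbour. E2F1 (7.51) and E2F3 (6.94 CPM per kb) overlapped there, and E2F5 (3.05), TFDP2 (2.90), E2F8 (0.480) and E2F2 (0.320 CPM per kb) were lowest, with the last pair overlapping. The place of a gene depends on the length used: with the longest coding transcript, E2F4 came first in the controls, E2F1 came after TFDP1, and E2F5 rose to place 5, while E2F7 stayed first in the other group.

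The make-up of E2F transcripts, as shares of the E2F1 to E2F8 sum in CPM per kb, therefore differed. The sum itself was 102.8 ± 1.11 CPM per kb in the controls and 96.3 ± 1.45 in the other group (SD, n = 3 each). Activators made up 36.4%, 36.9% and 36.9% in the controls and 15.0%, 15.8% and 15.3% in those labelled FOXF1-activated. Atypical members made up 29.4%, 29.2% and 28.9% in the controls and 45.5%, 47.1% and 47.5% in the other group. These values did not overlap, and within the atypical class E2F7 made up nearly all of the sum in the latter group, at 46.2 ± 1.02% of all E2F transcripts, with E2F8 at 0.499 ± 0.130%. E2F6 went from 5.54 ± 0.289% to 14.9 ± 1.75%, and E2F4 with E2F5 from 28.6 ± 0.341% to 23.0 ± 0.822%. The size of a share depends on the length used. With the longest coding transcript, E2F7 made up 21.7 ± 0.362% in the controls and 39.4 ± 0.959% in the other group.

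Ratios within a library followed from these shares. The ratio of activators to pocket-bound repressors was 1.29, 1.30 and 1.27 in the controls and 0.654, 0.660 and 0.684 in those labelled FOXF1-activated, a log2 difference of -0.95. With the longest coding transcript as length the ratio was 0.710 ± 0.0085 in the controls and 0.365 ± 0.0082 in the other group. Whether activators exceeded pocket-bound members in the controls therefore depends on the length. The direction of the fall between groups does not, but its size was smaller with CPM not divided by length, a log2 difference of -0.67. The ratio of E2F7 to E2F1 was 0.877 ± 0.017 in the controls and 5.97 ± 0.567 in the other group, and that of E2F7 to E2F8 was 6.87 ± 0.296 and 96.4 ± 21.4. The DP sum was 32.4 ± 0.668 and 19.4 ± 0.821 CPM per kb, and the ratio of the E2F1 to E2F8 sum to it was 3.17 ± 0.064 and 4.96 ± 0.140. That E2F sum includes E2F7 and E2F8, which bind DNA without a DP partner. Within it E2F7 alone went from 26.2 to 44.5 CPM per kb. The ratio is therefore not that of DP-binding members to their partners, and a ratio without E2F7 and E2F8 was not made. Levels of RNA give no measure of the dimers.

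**Figure D4:**
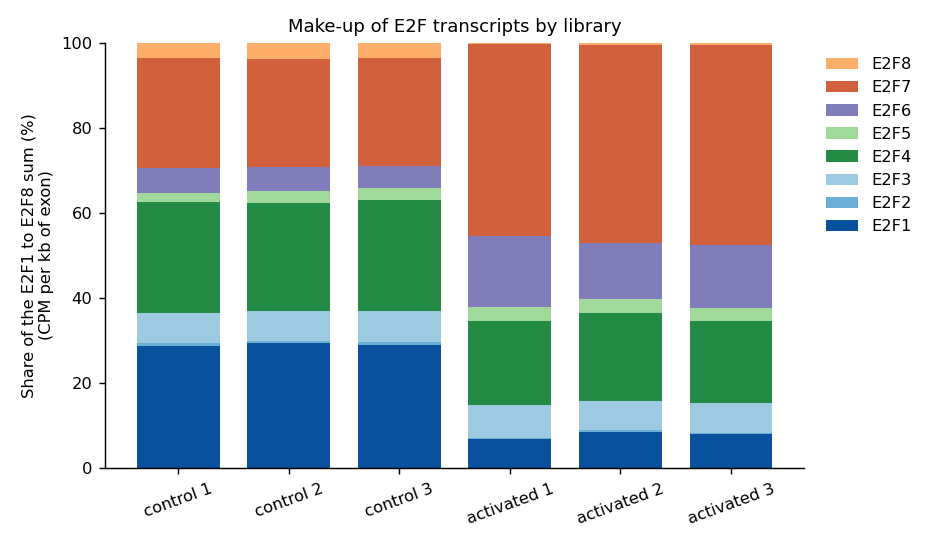
Share of each E2F gene in the sum of E2F1 to E2F8 (y axis, percent, CPM per kb of exon) in each library (x axis). E2F1 takes a mean of 29.1% in the controls and 7.80% in those labelled FOXF1-activated, and E2F7 takes 25.5% and 46.2%.

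The genes that act with E2F proteins were described from lists of the RB-E2F network, each by how many tested genes passed the edgeR test in each direction and by its median log2 fold change, to be read against 29.2% higher and 31.5% lower among all tested genes. The pocket proteins, which bind E2F factors and block activation, were all lower. RBL1 fell from 59.1 ± 3.73 to 16.4 ± 1.06 CPM (log2 fold change -1.85, edgeR adjusted p = 1.00e-07), as did RBL2 from 121 ± 5.34 to 53.1 ± 2.33 CPM (-1.19, adjusted p = 1.90e-07). RB1 fell from 68.4 ± 4.47 to 53.6 ± 8.41 CPM (log2 fold change -0.35, edgeR adjusted p = 0.0153), and its groups did not overlap, but it did not pass with upper-quartile scaling (-0.25, adjusted p = 0.0620), without control replicate 3 (-0.31, adjusted p = 0.0571) or without replicate 3 of the libraries labelled FOXF1-activated (-0.33, adjusted p = 0.0582). Of 7 subunits or regulators of the DREAM and MuvB complexes, which join RBL1 or RBL2 with E2F4 or E2F5 to silence cell cycle genes, 2 were higher, 3 were lower and 2 did not pass (median -0.14). DYRK1A, a kinase that promotes DREAM assembly, rose with a log2 fold change of 1.15, and MYBL2, which takes over MuvB in S phase, fell by 1.47 on the log2 scale. RBBP4 and LIN9, both MuvB subunits, had log2 fold changes of -1.08 and -0.60. The number called higher was 1 without control replicate 3 and without replicate 2 or 3 of the libraries labelled FOXF1-activated.

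Of 8 G1 cyclins and their kinases, which phosphorylate pocket proteins and release E2F factors, 2 were higher, 5 were lower and 1 did not pass (median -0.79). The kinases moved in both directions: CDK4 had a log2 fold change of -1.19, CDK2 of -1.12 and CDK6 of 1.54, from 33.1 ± 6.21 to 96.1 ± 10.7 CPM. The cyclin gene CCNE2, itself an E2F target, had -1.59. Of 7 inhibitors of these kinases, 1 was higher, 3 were lower and 3 did not pass (median -0.21). CDKN2C and CDKN2B, of the INK4 class that binds CDK4 and CDK6, had log2 fold changes of -1.68 and -1.44, CDKN1A, of the CIP/KIP class, had -0.85, and CDKN2D, of the INK4 class, had 0.70.

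Of 8 genes listed for the turnover or control of E2F proteins, 3 were higher and 5 were lower (median -0.89). The list joins degradation genes with a deubiquitinase and an inhibitor of the anaphase-promoting complex, so its median gives no direction of turnover. The lower genes with the smallest p were USP11, a deubiquitinase (log2 fold change -2.05), CCNA2, a cyclin whose kinase complex phosphorylates E2F1 (-1.99), CCNF, a substrate receptor for E2F degradation (-1.36), and FBXO5, an inhibitor of the anaphase-promoting complex (-2.09). The higher genes were FBXW11, BTRC and FZR1, which lie outside the naming rule and were named after their values were seen, at 0.69, 0.39 and 0.26.

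Targets of E2F factors at the start of S phase were mostly lower. Of 33 tested genes, 30 were lower, 1 was higher and 2 did not pass (median -1.03), against 31.5% lower among all tested genes. PCNA, the sliding clamp of DNA polymerase, fell from 243 ± 6.27 to 75.4 ± 2.23 CPM (log2 fold change -1.69, edgeR adjusted p = 1.97e-08). BRCA1, a DNA repair gene, fell from 50.6 ± 3.58 to 11.3 ± 0.214 CPM (-2.16), and the log2 fold changes of UHRF1, which maintains DNA methylation, and of CCNA2 were -1.77 and -1.99. CDC25A, a phosphatase that activates CDK2, was the 1 gene called higher, at 0.53 on the log2 scale (edgeR adjusted p = 0.00440). It was named after its values were seen, as were CDC6 (log2 fold change 0.16, adjusted p = 0.0667) and SLBP (-0.12, adjusted p = 0.154), which did not pass. Without replicate 1 of the libraries labelled FOXF1-activated, 2 genes were called higher. MKI67 moved with this list, as given above.

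**Figure D5:**
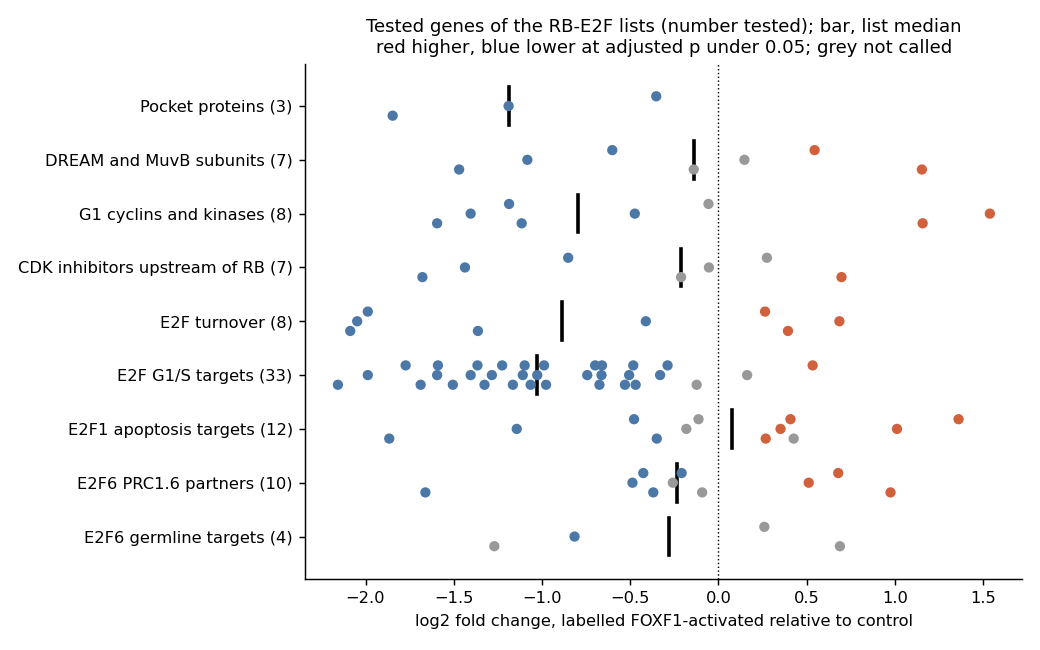
Log2 fold change (x axis, libraries labelled FOXF1-activated relative to negative control) of each tested gene in 9 lists of the RB-E2F network (y axis, number tested in brackets). Red points were higher and blue points lower at an edgeR adjusted p under 0.05, grey points did not pass, and the bar is the list median, which is -1.03 for the G1/S targets.

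Of 12 apoptosis genes that E2F1 can induce, 5 were higher (41.7%), 4 were lower (33.3%) and 3 did not pass (median 0.08), and the share lower is near the 31.5% of all tested genes. TP73, a p53 relative, fell from 14.4 ± 1.24 to 3.96 ± 0.768 CPM (-1.87 on the log2 scale, edgeR adjusted p = 7.09e-06), while CASP8, an initiator caspase, was at -0.48 on that scale (edgeR adjusted p = 9.94e-05). The number called higher was 3 without replicate 3 of the libraries labelled FOXF1-activated.

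The partners of E2F6 in the Polycomb complex PRC1.6, which represses germline genes, included 3 higher, 5 lower and 2 not passing among 10. Their median was -0.23. The share higher is near the 29.2% of all tested genes, and the share lower was 50% against 31.5%. The number called lower was 4 with upper-quartile scaling and 6 with library totals only. RING1, a ubiquitin ligase subunit, had a log2 fold change of -1.66 and WDR5 of -0.43, whereas MAX and MGA, a DNA-binding pair of the complex, had 0.97 and 0.68. Of 10 germline genes known as E2F6 targets mainly from mouse, 4 passed the filter on low counts and 6 did not. TDRKH was lower (log2 fold change -0.82, edgeR adjusted p = 3.13e-05), and STK31, STAG3 and SMC1B did not pass, at -1.27, 0.26 and 0.69 (adjusted p = 0.0509, 0.285 and 0.674). Without control replicate 3, 2 genes of this list were called lower. Over all lists, with a gene counted once, 17 genes were higher and 56 lower of 89 tested (median -0.49).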

How the data were processed

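Per the labels, RNA of T24 cells went through ribosomal RNA removal and strand-marking, paired-end library preparation, giving 6 libraries. Per the submitters' processing notes, the tools include cutadapt 1.9 and TopHat2 2.0.4 and the build is GRCh38. The deposited table holds the authors' whole-number counts per gene, with no normalization that the values show. How reads were counted (tool, strand, annotation) is not given in the sources used here. Counts of 4, 8 and 12 were 2.36, 1.94 and 1.60 times as common as their neighbours, so part of the depth of 72500854 to 77198669 counts may be overstated. Symbols came from a table of Ensembl identifiers (60401 of 60612 matched) and coordinates from GENCODE 29.

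Genes were kept by filterByExpr (minimum count 10, minimum total 15), scaled by TMM and tested in edgeR 4.0.16 (R 4.3.3; glmQLFit and glmQLFTest, no covariates), with Benjamini-Hochberg adjustment over all 20334 genes tested and a threshold of 0.05. The SE is the size of the log2 fold change divided by the root of the F statistic. Levels are given as CPM after TMM, and SDs cover the 3 libraries of a group. Pseudogenes were aligned with blastn 2.17.0. No pair of replicates agreed within sampling noise (chi-square per degree of freedom 19.2 to 33.0), so none was treated as a duplicate. The test was first tried on simulated data in which only a small share of genes was changed. Here 60.7% of tested genes were called, so that trial does not show how the test does in such a setting.

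Named are the 10 members, the pocket proteins, MKI67, FOXF1 and up to 4 genes with the smallest p in each other list. Some genes named by this rule are not reported here. The members and lists were chosen with earlier results of these data known. Alternatives were the Wald test of DESeq2 1.42.0, limma-voom (limma 3.58.1), scaling by DESeq2's size factors, by upper quartile or by totals, keeping every gene or those at 1 CPM in at least 3 libraries, a replicate block, prior count 2, counts divided by 4, CPM not divided by length and leaving out each library. Adding pseudogene counts to E2F6, the longest coding transcript as length, and the search for a pair of words in promoters were chosen after seeing the data.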

Additional observations from a re-analysis of the deposited data

How the results depend on the processing

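Under 17 alternative fits, 169 of 170 values for the members kept their direction and their side of the threshold. The exception was E2F3, which did not pass in any fit and was 0.0386 with upper-quartile scaling (log2 fold change, adjusted p = 0.669) against -0.06; the cause was not tested. Members called were 2 higher and 6 lower in every fit. E2F2 was the least firm call, from -1.17 to -0.75 with a highest adjusted p of 0.0372, and its counts of 80 to 296 per library limit its precision. Leaving out each library gave 11487 to 12002 changed genes against 12351, and -0.97 to -0.94 for the log2 difference in the activator to pocket-bound ratio against -0.95, which was -0.67 with CPM not divided by length, where E2F3, with exons of 5164 bases against 2503 for E2F1, gains weight among the activators, and -0.96 with the longest coding transcript. With the replicate number as a block, 11790 genes were called and the members' calls did not change. Deviations of same-numbered libraries correlated at -0.0202, -0.000998 and -0.0206, and no library correlated best with its own number. Such deviations, taken around means of 3 libraries, cannot tell whether same-numbered libraries were prepared together. LIN37, outside the naming rule, was called higher with a log2 fold change of 0.54, and 1 DREAM gene in place of 2 was called higher without control replicate 3 or replicates 2 or 3 of the libraries labelled FOXF1-activated. The G1/S targets called higher were 2 in place of 1 in 6 fits, and the germline genes called lower 2 in place of 1 with library totals only and without control replicate 3.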
